A study of Mus musculus with 6 samples.

Results

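Class I myosins are single-headed motor proteins that walk along actin filaments. Their head burns ATP, their neck binds calmodulin as a light chain, and their tail binds acidic lipids of the membrane, so that they link the actin cortex to the plasma membrane and to vesicles. In blood cells they are known for setting membrane tension, cell migration, adhesion and uptake. Myo1e and Myo1f are long-tailed members with an SH3 domain at the end of the tail, and the others considered here are short-tailed.

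The family was examined in double-positive (DP) thymocytes, the T cell precursors that carry both CD4 and CD8. It comprised 7 genes of 19938 with a probe set of their own, found by their symbols Myo1a, Myo1c, Myo1d, Myo1e, Myo1f, Myo1g and Myo1h, and these had 8 probe sets. Each gene's probe set was chosen by its mean over all 6 arrays, the brightest being used. The family was taken up with the difference of Myo1f between genotypes already known, so that difference is given as a description and without a test.

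The 3 arrays of the knockout (KO) held RNA of DP thymocytes from C57BL/6 mice labelled Hdac3 KO and, in the series title, LCK:Hdac3 KO. The 3 wild-type (WT) arrays held RNA of DP thymocytes from C57BL/6 mice labelled WT. All mice were 3 weeks old and untreated, and total RNA was pooled from 2 mice of each genotype. HDAC3 is the histone deacetylase of the NCoR/SMRT corepressors, and Lck is a kinase gene of the T lineage. What Lck drives in these mice, whether WT mice carried it, which part of Hdac3 was deleted, and how mice were spread over arrays is not given in the sources that were used. The spread between arrays may therefore be partly technical.

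Hdac3 had log2 probe set values of 8.28, 8.32 and 8.32 on the KO arrays, against 9.40, 9.42 and 9.44 on the WT arrays. It was lower on every KO array, with a log2 difference (KO minus WT) of -1.12 (SE 0.08, limma adjusted p = 3.5e-04). Whether its probes lie within the deleted part was not analysed here. All 11 measured DP markers, among them Cd4, Cd8a and Rag1, were brighter than the median tested probe set. Signal was compressed on the KO arrays, whose interquartile ranges were 3.06 to 3.25 on the log2 scale, against 3.29 to 3.49 on the WT arrays. The difference of each class I myosin is therefore given beside the median difference of the 1000 probe sets nearest in mean signal. Some of the gene lists have their median difference set beside such medians. Differences of single genes outside the family, Hdac3 among them, are given without one, so the shift at their signal level is not taken into account. Of 23410 probe sets tested with limma, 5.79% were called, that is, had a p under 0.05 after Benjamini-Hochberg adjustment, 1.75% with higher and 4.04% with lower values in KO. Higher calls made up 30.2% of all calls, and 9.56% after median centring, where the median of all differences was -0.08 in place of 0.02.

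The family did not move as a block. Myo1f was higher in KO, Myo1c was called lower by a small margin, and the other 5 members did not pass the threshold. These counts, 1 of 7 higher and 1 of 7 lower, stand beside the 1.75% and 4.04% above, and nothing is read from them because Myo1f was known beforehand. The median log2 difference of the 7 members was 0.17, against 0.02 over all tested probe sets. Differences varied with signal level, however, and the medians of the 1000 probe sets nearest in signal to each member, -0.17 to 0.16, had a median of 0.13. KO and WT values did not overlap for 3 members, with KO above WT for Myo1f and Myo1g and below WT for Myo1c, where 30% of all tested probe sets did not overlap.

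**Figure D1:**
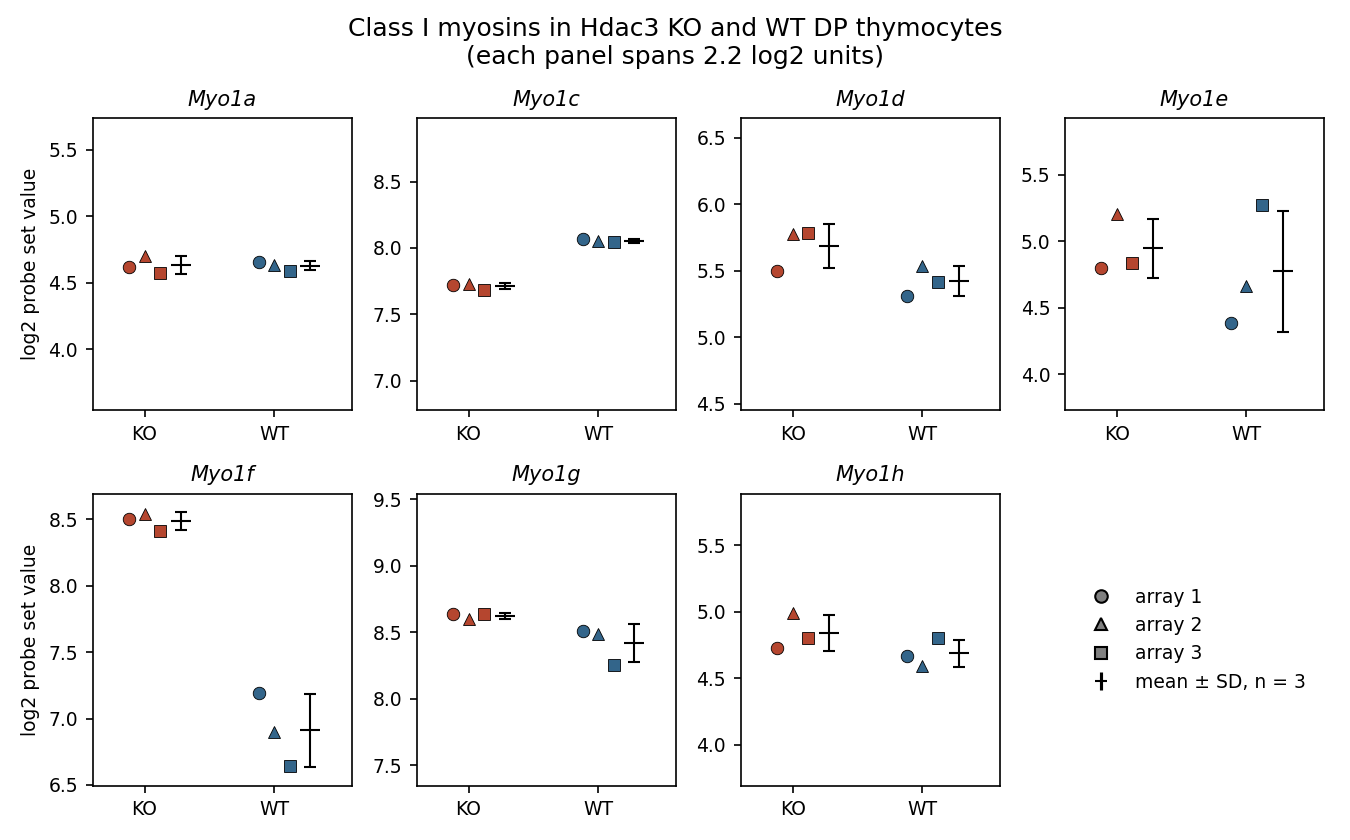
Log2 probe set values (y axis, each panel spanning 2.2 log2 units) of the 7 class I myosins on KO arrays (left, red) and WT arrays (right, blue), with symbols for arrays 1 to 3 and black marks for the mean ± SD (n = 3). The Myo1f values of KO lie above 8.4 and those of WT below 7.2, Myo1c is separated in the other direction, and the groups overlap for Myo1a, Myo1d, Myo1e and Myo1h.

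The DNA before the start of the members was read from RefSeq (build GRCm38.p6), in windows of 300 bases from 250 before to 50 after an annotated start. The windows of Myo1f and Myo1g are printed because these are the members best known from blood cells, and the groups were separated upward for both. Capitals mark GGAAGT (a core of ETS factor sites), TGTGGT (RUNX) and AGGTCA (a half-site of nuclear receptors) on either strand.
Myo1f, chr17:33555457-33555756, plus strand: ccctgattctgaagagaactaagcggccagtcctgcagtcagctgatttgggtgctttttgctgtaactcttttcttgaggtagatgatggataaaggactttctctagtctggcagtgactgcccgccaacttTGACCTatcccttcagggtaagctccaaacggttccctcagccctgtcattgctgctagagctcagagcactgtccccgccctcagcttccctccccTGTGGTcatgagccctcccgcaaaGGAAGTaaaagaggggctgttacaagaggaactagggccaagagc
Myo1g, chr11:6520909-6521208, minus strand: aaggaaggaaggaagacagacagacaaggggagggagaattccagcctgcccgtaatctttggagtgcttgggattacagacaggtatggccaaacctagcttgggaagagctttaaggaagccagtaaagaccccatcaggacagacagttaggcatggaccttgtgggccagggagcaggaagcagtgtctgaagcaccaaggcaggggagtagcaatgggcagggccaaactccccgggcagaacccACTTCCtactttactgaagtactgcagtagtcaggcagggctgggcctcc

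The Myo1f window held each of the 3 motifs once. Its GGAAGT covered bases 6 to 11 of the gene, TGTGGT lay at -19 to -14 before the start, and AGGTCA lay at -116 to -111 on the opposite strand. The Myo1g window held 1 GGAAGT and neither of the other motifs. This GGAAGT lay on the opposite strand, at bases 1 to 6 counted from the annotated start of that window. Over all 32851 RefSeq windows of this length, 23.8% held GGAAGT, 16.8% TGTGGT and 16.3% AGGTCA. The E-box CANNTG, which E proteins bind and which is left in lower case, was in 72.3% of all windows and once in that of Myo1f. Windows were found for 6 of the 7 members, 9 windows in all, and 3 of these held GGAAGT, 1 TGTGGT, 2 AGGTCA and 7 CANNTG. The motifs do not overlap each other in either printed window, and a match of letters is no measured binding site.

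Myo1f, a long-tailed motor found mainly in immune cells and known in mouse neutrophils for control of adhesion and migration, was higher on every KO array. Its log2 values were 8.51, 8.54 and 8.41 in KO, against 7.19, 6.90 and 6.65 in WT. All KO values lay well above the WT values, and the WT values were the more scattered. The means were 8.49 ± 0.07 in KO and 6.91 ± 0.27 in WT (SD, n = 3 each), a difference of 1.57 (SE 0.13) or 2.98-fold. The 1000 probe sets nearest in mean signal had a median difference of -0.16, so the direction of Myo1f was opposite to the shift at its signal level. After quantile normalization the difference was 1.69. Leaving out WT array 3 gave 1.44 and leaving out WT array 1 gave 1.71, the extremes over the 6 fits that left out 1 array. In these bulk samples more cells with the transcript and more transcript per cell cannot be told apart.

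Myo1e, the other long-tailed member, known for its role in kidney podocytes and in endocytosis, varied more than any other member here within the WT group. Its values were 4.80, 5.20 and 4.84 in KO, against 4.38, 4.66 and 5.27 in WT. The WT arrays alone spanned the KO values, and the groups overlapped. The difference was 0.17 (95% interval -0.29 to 0.63, limma adjusted p = 0.62), close to the median of 0.15 of the nearest probe sets. Without WT array 3 it was 0.42 and without WT array 1 it was -0.02, the extremes over the 6 fits that left out 1 array. Only the fit without WT array 1 turned the sign. The probe set was dim, and no difference between the long-tailed relatives was tested.

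Myo1g, a short-tailed motor of lymphocyte membranes that is restricted to blood cells, had values of 8.64, 8.60 and 8.64 in KO, against 8.51, 8.49 and 8.25 in WT. Every KO array was above every WT array, by a small step, and WT array 3 was the lowest. The difference was 0.21 (95% interval -0.02 to 0.43, limma adjusted p = 0.23) and did not pass. It was 0.12 without WT array 3 and 0.33 after quantile normalization (limma adjusted p = 0.059). The 1000 probe sets nearest in signal had a median difference of -0.15, so Myo1g, like Myo1f, had the opposite sign to the probe sets around it.

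Myo1d, the close relative of Myo1g whose fly counterpart sets left-right asymmetry in Drosophila, had 2 probe sets. The brighter gave 5.50, 5.77 and 5.79 in KO, against 5.31, 5.54 and 5.41 in WT. KO array 1 was below WT array 2, so the groups overlapped. The difference was 0.27 (95% interval 0.02 to 0.52, limma adjusted p = 0.17), and the nearest probe sets had a median of 0.16. The dimmer probe set gave 4.53, 4.83 and 4.72 in KO, against 4.41, 4.65 and 5.02 in WT, a difference of -0.00 (limma adjusted p = 0.996). The 2 probe sets thus did not give the same size of difference, and neither passed.

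Myo1c, a widely expressed short-tailed motor known for insulin-driven glucose transporter traffic and for the adaptation of inner ear hair cells, was the member called lower. It had values of 7.72, 7.73 and 7.68 in KO, against 8.07, 8.05 and 8.04 in WT. Both groups were tight, with SDs of 0.02 in KO and 0.01 in WT, and they did not overlap. The difference was -0.34 (SE 0.08, limma adjusted p = 0.047), a KO signal of 78.9% of the WT signal. The nearest 1000 probe sets in signal had a median difference of -0.17. After quantile normalization the difference was -0.20 and did not pass (limma adjusted p = 0.22). The call was also lost when any of the 6 arrays was left out, while the difference stayed between -0.35 and -0.33 (limma adjusted p up to 0.14).

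Myo1h and Myo1a were dim and did not pass. Myo1h, of the same subclass as Myo1c, had values of 4.73, 4.99 and 4.80 in KO, against 4.67, 4.59 and 4.80 in WT. The groups overlapped, with a difference of 0.15 (95% interval -0.08 to 0.39, limma adjusted p = 0.39), and the nearest probe sets had a median of 0.13. Myo1a, the motor of the intestinal brush border, had 4.62, 4.70 and 4.58 in KO, against 4.66, 4.64 and 4.59 in WT. The values intermingled, and the difference was 0.00 (95% interval -0.19 to 0.20, limma adjusted p = 0.98), with a median of 0.14 for the nearest probe sets. It was -0.11 after quantile normalization, which turned its sign without a call.

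Only Myo1c, Myo1f and Myo1g had a mean signal above that of the median tested probe set, 5.77. No background level was available for the other 4 members, so their values may not report the transcript.

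**Figure D2:**
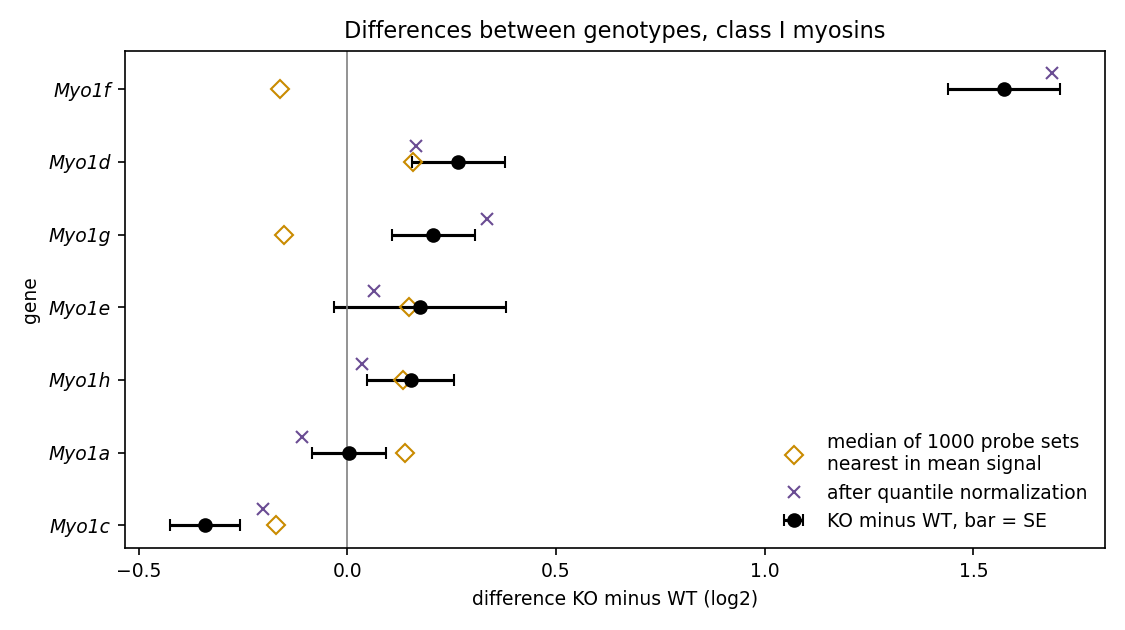
Log2 differences (KO minus WT, x axis) of the 7 members, with black points for the deposited values (bars are the SE), diamonds for the median of the 1000 probe sets nearest in mean signal and crosses for the difference after quantile normalization. Myo1f stands at 1.57 against a neighbourhood of -0.16, Myo1c moves from -0.34 to -0.20 after quantile normalization, and the others lie between 0.00 and 0.27.

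Genes of other cell types were set beside Myo1f because myeloid and natural killer (NK) cells are known to express it too. The 12 neutrophil markers had log2 summed signals of 8.24, 9.95 and 8.29 on KO arrays 1 to 3, against 8.09, 8.05 and 8.24 on WT arrays 1 to 3. Every KO array was above every WT array. KO array 2 stood apart, while KO arrays 1 and 3 were close to WT array 3, KO array 1 almost level with it (8.2427 against 8.2426). All 12 markers had positive differences, and so did 72.2% to 80.8% of the 1000 probe sets nearest in signal to each. None was called by limma, and 2 of the 12 had an unadjusted p under 0.05, as did 25.2% of all tested probe sets. S100a8, a calcium-binding protein of neutrophils, had 4.55, 7.12 and 5.02 in KO, against 4.67, 4.70 and 4.36 in WT, with overlap. The 2 markers with an unadjusted p under 0.05 were Camp and Elane (limma unadjusted p = 0.010 and 0.022). Camp had 5.27, 5.82 and 5.51 in KO, against 5.22, 4.97 and 5.08 in WT, without overlap. Elane had 5.51, 5.51 and 5.21 in KO, against 4.84, 5.03 and 5.27 in WT, with overlap. Myo1f was 1.59, 1.63 and 1.50 above its WT mean on KO arrays 1 to 3. Without KO array 2 the difference of Myo1f was 1.55. The part of the neutrophil list in the difference of Myo1f was not tested.

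Summed signals of 11 macrophage markers were 8.61, 8.94 and 8.58 in KO, against 8.40, 8.53 and 8.62 in WT. Those of 8 NK cell markers were 8.01, 7.94 and 7.69 in KO, against 7.80, 7.65 and 7.97 in WT. The groups overlapped for both lists. For 9 dendritic cell markers the sums were 9.57, 9.40 and 9.50 in KO, against 9.67, 9.71 and 9.61 in WT. This order came from 1 gene, the protease inhibitor Cst3, which made up 59% to 72.5% of the sum and had 8.95, 8.64 and 8.82 in KO, against 9.19, 9.25 and 9.04 in WT. Without Cst3, left out after seeing the data, the sums were 8.06, 8.11 and 8.09 in KO, against 7.83, 7.85 and 7.98 in WT, so every KO array was above every WT array. Of the 9 markers 7 had positive differences. The median of the 9 was 0.08, against 0.15 for the median of the probe sets nearest in signal to each. The part of the macrophage, NK cell and dendritic cell lists in the difference of Myo1f was not tested. None of the genes of these 3 lists was called by limma. An unadjusted p under 0.05 was found for 3 of the 11 macrophage, 0 of the 8 NK cell and 3 of the 9 dendritic cell markers. Of all tested probe sets, 25.2% had one. The defining markers Csf1r of macrophages and Ncr1 of NK cells were dimmer than the median tested probe set. Some markers of the same lists were brighter than it, 1 of the 11 for macrophages and 2 of the 8 for NK cells.

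**Figure D3:**
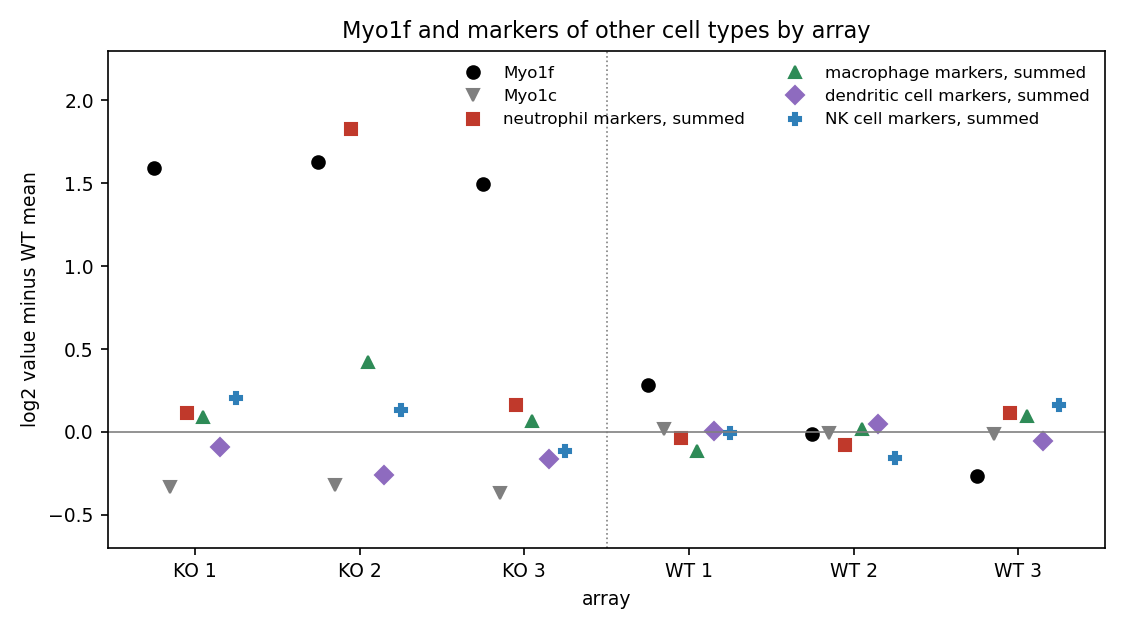
Log2 values minus the WT mean (y axis) on each array (x axis, KO arrays left of WT arrays) for Myo1f, Myo1c and the summed signal of neutrophil, macrophage, dendritic cell and NK cell markers. Myo1f is 1.50 to 1.63 above its WT mean on all KO arrays. The neutrophil sum is highest on KO array 2, and the dendritic cell sum includes Cst3.

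The 5 genes whose values over the 6 arrays ran most nearly parallel to Myo1f were Klhl6, Gimap6, Elovl6, Lcp2 and Mtmr14, among 9877 genes brighter than the median. Their Pearson correlations with Myo1f were 0.9935 to 0.9986 over 6 arrays. Since the choice by likeness to Myo1f brings in a difference between genotypes, the correlations and differences are a description, without a test. The log2 differences were 0.37 for Klhl6, an adaptor of B cell receptor signalling, 0.75 for the immune GTPase Gimap6, 0.58 for the fatty acid elongase Elovl6, 0.34 for Lcp2, the T cell adaptor SLP-76, and 0.27 for the lipid phosphatase Mtmr14. All 5 had the WT order of Myo1f, with WT array 1 highest and WT array 3 lowest. The choice over the same 6 arrays favours this shared order, so nothing is read from it.

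The neighbours of Myo1f in the gene order were also measured. Adamts10, a secreted protease gene on one side, had values of 7.25, 7.68 and 7.45 in KO, against 7.44, 7.19 and 7.39 in WT, which overlapped (difference 0.12, limma adjusted p = 0.58). Zfp414, a zinc finger gene on the other side, had 7.87, 7.75 and 8.01 in KO, against 8.16, 8.13 and 8.15 in WT, lower on each KO array (difference -0.27, limma adjusted p = 0.12). Of the 14 nearest measured neighbours of the 7 members, limma called 0, where 5.79% of all tested probe sets were called. Of these 14 neighbours, 6 had an unadjusted p under 0.05, where 25.2% of all tested probe sets did. Their differences ranged from -0.43 to 0.43.

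Other genes of actin-based motility were counted in the same fit, where 5.79% of all probe sets were called. Of 20 other myosin heavy chains, 1 was higher, 2 were lower and 17 did not pass, with a median difference of 0.15, against 0.08 for the median of the probe sets nearest in signal to each. Myo10, the motor of filopodia, had 7.08, 7.26 and 7.15 in KO, against 7.72, 7.62 and 7.76 in WT, without overlap. It fell by 0.54 (SE 0.09, limma adjusted p = 0.013), and the call was lost after quantile normalization (difference -0.41, limma adjusted p = 0.063) and without KO array 3 (difference -0.53, limma adjusted p = 0.056). Myo5a, a transporter of vesicles, had 6.43, 6.45 and 6.20 in KO, against 6.97, 7.20 and 6.77 in WT, also without overlap. It fell by 0.62 (SE 0.13, limma adjusted p = 0.023) and stayed called in 2 of the 6 fits that left out 1 array, those without KO array 1 and without WT array 3 (differences -0.73 to -0.52). Myo5c, its relative of secretory epithelia, was dim and rose by 0.46 (limma adjusted p = 0.049), a call lost in all 6 such fits (differences 0.34 to 0.55). Myh9, the non-muscle myosin II heavy chain of lymphocytes, did not pass (difference 0.19, limma adjusted p = 0.21).

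Among genes of the light chains that class I and other myosins carry, 0 of 9 were called by limma, beside 5.79% of all tested probe sets. Of these 9 genes, 3 had an unadjusted p under 0.05, beside 25.2% of all tested probe sets. Calm3, a calmodulin gene, had 9.91, 9.66 and 9.82 in KO, against 10.08, 10.13 and 10.23 in WT. Its difference of -0.35 did not pass (limma adjusted p = 0.071), nor did that of the myosin II light chain Myl12a (-0.30, limma adjusted p = 0.11). The median of the 9 was -0.08, against -0.02 for the median of the probe sets nearest in signal to each. Of 4 tropomyosins, which coat actin filaments, Tpm1 was called lower (difference -0.41, SE 0.10, limma adjusted p = 0.041) and 3 did not pass. The Tpm1 call was lost after quantile normalization (difference -0.27, limma adjusted p = 0.16) and in all 6 fits that left out 1 array (-0.45 to -0.36).

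Branched actin is the filament network on which class I myosins often work. Of 23 measured genes of the Arp2/3 complex and its activators, 1 was higher, 2 were lower and 20 did not pass. Over all tested probe sets 1.75% were higher and 4.04% lower. The median difference was -0.00, against -0.05 for the median of the probe sets nearest in signal to each. Abi2 and Nckap1 were the genes that fell, and each encodes a part of the WAVE complex, which activates Arp2/3. The other 8 measured WAVE genes, grouped after their values were seen, did not pass, with differences of -0.07 to 0.27. Abi2 had 6.25, 6.54 and 6.14 in KO, against 7.02, 7.25 and 7.07 in WT, lower on every KO array. It fell by 0.80 (SE 0.12, limma adjusted p = 0.0071) and was called in all 6 fits that left out 1 array. Nckap1 had 6.57, 6.12 and 6.39 in KO, against 7.17, 7.11 and 6.92 in WT, again without overlap. It fell by 0.71 (SE 0.13, limma adjusted p = 0.015), and was not called without KO array 3 (-0.72), WT array 1 (-0.66) or WT array 2 (-0.69). Its counterpart of blood cells, Nckap1l, did not pass (difference 0.13, limma adjusted p = 0.37). Hcls1, a cortactin relative of blood cells, rose by 0.37 (SE 0.09, limma adjusted p = 0.041), a call lost in all 6 fits that left out 1 array (0.35 to 0.41).

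Linkers of membrane and cortex gave 1 higher gene of 13 measured and 0 lower. Over all tested probe sets 1.75% were called higher and 4.04% lower, which also stands beside the tail partners below. The median difference was -0.14, against -0.05 for the median of the probe sets nearest in signal to each. Msn, the ERM protein moesin, had 11.33, 11.46 and 11.28 in KO, against 11.00, 10.95 and 10.95 in WT. It rose by 0.39 (SE 0.09, limma adjusted p = 0.041), and was not called after quantile normalization (0.37, limma adjusted p = 0.051) or in any of the 6 fits that left out 1 array (0.34 to 0.43). The other ERM genes, Ezr and Rdx, differed by 0.05 and -0.33 and did not pass. Of 8 genes for partners of the long tails, Dnm2, the endocytic GTPase dynamin 2, rose by 0.35 (SE 0.09, limma adjusted p = 0.046) and 7 did not pass. Dnm2 stayed called in 1 of the 6 fits that left out 1 array, that without WT array 3 (differences 0.34 to 0.38).

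Myo1f is known in mouse neutrophils for its effect on beta-2 integrins, and 5 such integrin genes were measured. Itgam, the CD11b chain, had 8.57, 8.18 and 8.33 in KO, against 6.60, 6.05 and 6.22 in WT, well apart, and its difference of 2.07 was known beforehand and is given without a test. Itgb2, the shared beta chain, differed by 0.35 (limma adjusted p = 0.072) and Itgal, the CD11a chain, by 0.35 (limma adjusted p = 0.063). None of the 4 genes other than Itgam passed.

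Median centring ended the calls of 4 of the genes that rose, with differences of 0.36 for Myo5c, 0.27 for Hcls1, 0.29 for Msn and 0.25 for Dnm2. Myo5c also missed the threshold after quantile (0.36) and cyclic loess normalization (0.34), and Dnm2 narrowly missed it after quantile normalization (0.36, limma adjusted p = 0.052). With all probe sets tested, Myo5c and Dnm2 were not called (limma adjusted p = 0.059 and 0.054).

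**Figure D4:**
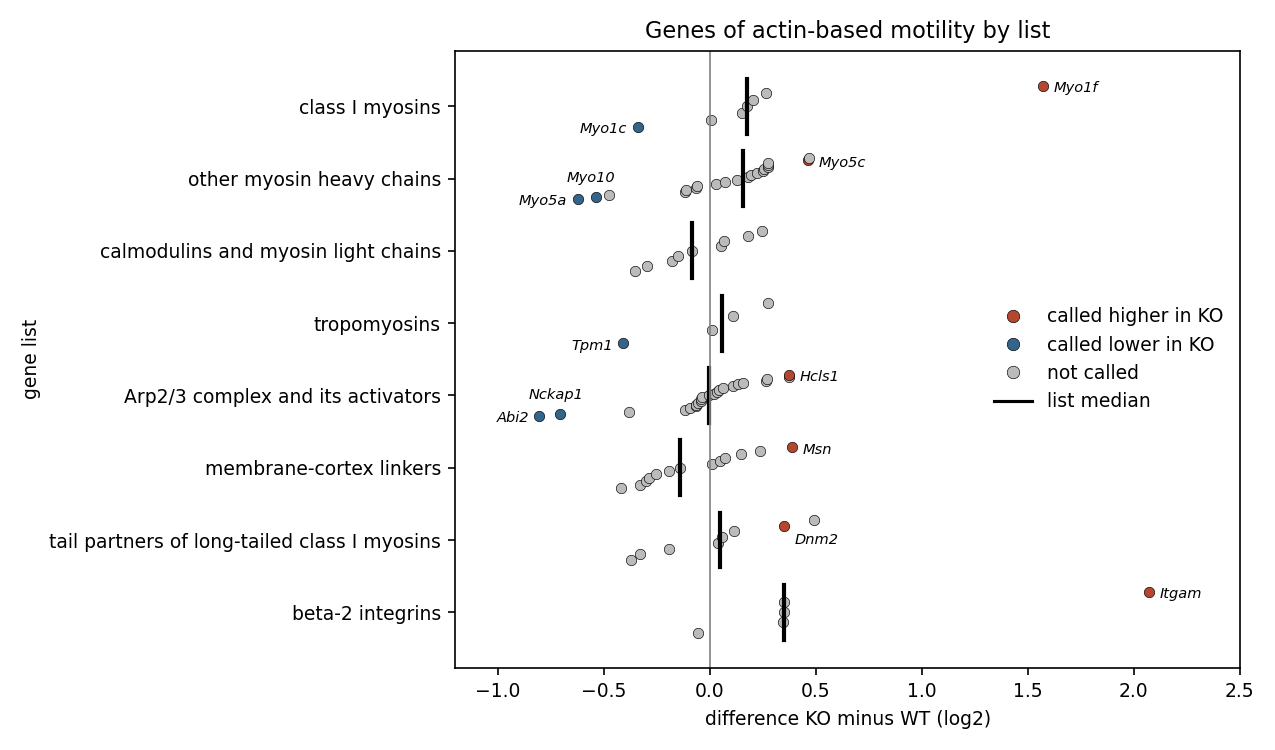
Log2 differences (KO minus WT, x axis) of the measured genes of 8 lists (y axis), 1 point a gene, with red for called higher in KO, blue for called lower, grey for not called and a black line for the list median. Most points lie within 0.5 of 0, and Myo1f at 1.57 and Itgam at 2.07, both known beforehand and coloured by the same rule, stand to the right of the other genes shown.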

How the data were processed

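The deposited table holds log2 values, 1 column per array. Per the labels, biotin-labelled sense-strand target of total RNA was hybridised to an Affymetrix array. The log2 scale was read from the values (1.94 to 13.98), and the background correction, normalization and probe set summary are not stated in the sources used here. Probe sets were named through the platform annotation, and 21698 of 21789 probe sets with 1 symbol matched RefSeq (GRCm38.p6) by Entrez identifier.

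Groups came from the sample titles. The 23410 probe sets with a gene were fitted with limma 3.58.1 in R 4.3.3 (2 group means, two-sided, Benjamini-Hochberg over all of them, threshold 0.05). The number of arrays limits the precision, with a median SE of 0.11. In simulated data with 200 of 23410 probe sets changed (10 draws), the fit recovered 53.3% of changes of 0.5, and 7.71% of its calls were false. The real data gave 1355 calls, so this false share need not hold for them.

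Members and lists were chosen with earlier results of these data known. Named genes are the 7 members, Hdac3, from each list up to 4 called genes by size of change (the 2 of smallest p where none was called), the 5 genes most like Myo1f, and the nearest measured neighbours. S100a8, Camp, Elane, Cst3, Csf1r, Ncr1, Myh9, Nckap1l, Ezr, Rdx, Itgb2, Itgal, Cd4, Cd8a and Rag1 were named after their values were seen. Marker signals were summed on the linear scale. Of the listed genes, 4 Arp2/3 genes, 1 calmodulin gene and 1 linker gene shared their probe sets with other genes or were not listed, and were not analysed here. Alternatives were quantile, median and cyclic loess scaling, a filter on dim probe sets, all probe sets, another prior (intensity trend, robust), array weights, a replicate block, fits without 1 array, and averaging the probe sets of a gene.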

Additional observations from a re-analysis of the deposited data

How the results depend on the processing

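The difference of Myo1f lay between 1.44 and 1.71 in all alternatives run. No call was made for Myo1a, Myo1d, Myo1e, Myo1g or Myo1h in any of them, and the dim members were not tested when dim probe sets were left out. Myo1c was not called after quantile normalization (-0.20), cyclic loess (-0.22), with all probe sets tested (-0.34), with the replicate block (-0.34) or with 1 array left out (-0.35 to -0.33), which left 1 member called in each case. Over all probe sets the 1355 calls became 2060 after median centring, 2285 with array weights and 474 to 1946 with 1 array left out.

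Of the gene lists, the Arp2/3 list (3 called) had 5 with quantile or cyclic loess scaling, dim probe sets left out, another prior or array weights, 2 with the replicate block, and 1 to 3 with 1 array left out. The other myosins (3) had 1 after quantile normalization, 5 with another prior or array weights, and 0 to 4 with 1 array left out. The linkers (1) had 0 after quantile normalization and with the replicate block, 4 after median centring, without dim probe sets and with another prior, 3 with array weights, and 0 to 2 with 1 array left out. The integrins (1, which is Itgam, known beforehand) had 2 after cyclic loess and 3 without dim probe sets, with another prior and with array weights. The light chains (0) had 1 after median centring and without dim probe sets, and 3 with another prior. The tail partners (1) had 0 after quantile normalization, with all probe sets and with the replicate block, 2 with array weights, and 0 to 1 with 1 array left out. The tropomyosins (1) had 0 after quantile normalization, cyclic loess and with the replicate block, and 0 with any array left out. With the replicate block Hcls1 (limma adjusted p = 0.065), Myo5c (0.057), Msn (0.062), Dnm2 (0.071) and Tpm1 (0.052) were not called. The summed dendritic cell signal differed by 0.20 without Cst3, an alternative chosen after seeing the data, against -0.17 with it. Apart from the effect of leaving out Cst3, the cause of these changes was not tested. Whether the replicate numbers pair the arrays is not given in the sources used. Deviations of arrays with the same number correlated at 0.25, -0.07 and -0.03 across probe sets, against -0.34 to 0.32 for different numbers. With 3 arrays in each group these values cannot decide it.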
